A study of Mus musculus with 3 samples.

Results

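The miRNAs described here lie in the imprinted Dlk1-Dio3 region of mouse chromosome 12. They were chosen by position alone: every miRNA on the array with a probe matched, in the array files' mm9 coordinates, to chromosome 12 between 110.7 and 111.6 Mb. The rule gave 81 mature miRNAs of the 1881 on the array, measured by 203 probes, and used no signal value. All were measured in exosomes, which are small membrane vesicles shed by cells. The exosomes came from mesenchymal stem cells (MSCs), adherent stromal cells grown from the bone marrow of male wild-type C57BL/6 mice aged 4 to 6 weeks and used at passages 3 to 6. Cells spent 24 h under normoxia, giving the group N-Exo, under hypoxia, giving H-Exo, or under hypoxia plus GW4869, giving H+G-Exo. GW4869 is an inhibitor of neutral sphingomyelinase, an enzyme of exosome formation. A group with GW4869 in normoxia was not analysed here. All cells were grown in medium with 10% fetal bovine serum, and all exosomes were pelleted from the conditioned medium by ultracentrifugation. Each group was 1 array. The design text mentions 3 samples per exosome kind, and pooling of RNA is not described in the sources used here. No difference below therefore has a replicate check and no test was possible. The ± values are SDs among the spots of a single probe within an array, so they hold technical error only.

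The Dlk1-Dio3 region is imprinted: protein-coding genes such as Dlk1, Rtl1 and Dio3 are expressed from the paternal chromosome, and noncoding RNAs, among them Meg3, Rian and Mirg, from the maternal one. Most of the miRNAs are cut from hairpins in those maternal transcripts, and each hairpin can give a mature miRNA from its 5' arm (5p) and from its 3' arm (3p). The 4 arms of miR-3071 and miR-1247 are listed on the minus strand, unlike the rest. The region is known for high activity in the embryo, the placenta and the brain, and its activity has been used as a mark of full pluripotency in mouse stem cells. A miRNA recognises its targets mainly through its seed, bases 2 to 8 from the 5' end.

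Of the 81 mature miRNAs, 78 had a mature sequence in RefSeq (table of build GRCm38.p6). miR-376c-3p, miR-485-5p and miR-487b-3p had none. The 78 sequences held 73 different seeds, and 5 seeds were each shared by a pair of miRNAs. The 15 detected miRNAs with a sequence had 15 different seeds, so no seed was represented by more than 1 detected member. Outside the 81, miR-3070-2-3p shares the seed of miR-3070-3p. It is a miRNA of the region that was not included, and it was detected on every array. The following 7 are shown because they are the miRNAs with a sequence that were called higher or lower in a comparison below. Sequences run 5' to 3' and the capitals mark the seed.
miR-494-3p: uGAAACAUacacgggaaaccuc
miR-1247-3p: cGGGAACGucgagacuggagc
miR-370-3p: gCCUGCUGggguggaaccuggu
miR-341-3p: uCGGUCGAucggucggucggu
miR-300-3p: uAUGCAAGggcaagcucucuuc
miR-541-5p: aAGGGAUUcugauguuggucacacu
miR-758-5p: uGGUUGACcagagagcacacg

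The seed of miR-758-5p, GGUUGAC, is also that of miR-1197-5p, a cluster miRNA that was not detected on any array. No other mouse mature sequence in the table carried the seed of miR-494-3p, miR-1247-3p, miR-370-3p, miR-341-3p, miR-300-3p or miR-541-5p. The eighth called miRNA, miR-487b-3p, is shown by its probe on the array, which pairs with the miRNA and is thus antisense to it.
miR-487b-3p probe: aagtggatgaccctgtac

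The hairpin of miR-494 is shown because its 3p arm had the largest called difference between H+G-Exo and H-Exo while its 5p arm was not detected. The capitals mark the 22 bases of miR-494-3p in the 85 bases of the hairpin.
Mir494 hairpin: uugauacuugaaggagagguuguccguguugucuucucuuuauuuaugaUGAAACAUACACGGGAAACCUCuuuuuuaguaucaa

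The probes read mainly the 3' part of each miRNA. For the 15 detected miRNAs with a sequence, the probe used was 11 to 21 bases long. It paired with the whole seed in 1 miRNA, with part of it in 8 and with none of it in 6. The stretch that pairs with the probe was found in 0 of the other mature mouse sequences of the table for these 15 probes. miR-300-3p and its relative miR-381-3p, which was not detected, have 22 bases each and differ at 3 positions, 1 of them in the seed.

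Signals are scaled, that is, each probe's background-subtracted mean over spots is given as a multiple of the 75th percentile of its array, and each miRNA is represented by its brightest probe. A miRNA was detected on an array where more than 50% of the spots of a probe were well above background. The calls higher and lower need detection on both arrays, a ratio of 2-fold or more, and a log2 difference larger than 2 of its standard errors over spots. The arrays detected 690, 589 and 679 of all miRNAs in N-Exo, H-Exo and H+G-Exo, and the 75th percentiles were 417, 235 and 469. Of 10 miRNAs typical of mesenchymal cells, 10, 8 and 9 were detected. miR-10b-5p was missing in H-Exo and H+G-Exo and miR-145a-5p in H-Exo. On the N-Exo, H-Exo and H+G-Exo arrays the mesenchymal list summed to scaled signals of 288, 125.5 and 49.9. The arrays thus differed in this list too. Its part in the differences below was not tested. The endothelial list (2 miRNAs) and the epithelial list (6 miRNAs) had 0 members detected on every array, and the blood list had 2 of 6 on each. In N-Exo, H-Exo and H+G-Exo the muscle and heart list had 3, 1 and 3 of 6 detected, the neuronal list 1, 0 and 1 of 4, and the liver and serum list 2, 0 and 0 of 3. A lower miRNA content of the vesicles and a smaller number of vesicles that carry the miRNA cannot be told apart in such bulk samples.

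Most of the cluster was not detected. N-Exo held 12 of the 81 miRNAs (14.8%), H-Exo 12 (14.8%) and H+G-Exo 16 (19.8%). Over all miRNAs on the array the shares were 36.7%, 31.3% and 36.1%. Counting detection on any array, the cluster had 16 of 81 (19.8%) and the whole array 759 of 1881 (40.4%). The same share was 5 of 10 for other imprinted miRNAs outside chromosome 12 (miR-296, miR-298, miR-335, miR-483 and miR-675). It was 25 of 61 for the miRNAs of the large cluster in an intron of Sfmbt2, and 9 of 28 for the miR-290 and miR-302 clusters of pluripotent cells. The cluster thus had the lowest detected share of these lists, as a description of 3 arrays.

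Detection differed between the arms of a hairpin. The 81 miRNAs came from 44 hairpins, 37 of which had both arms on the array within the window. Exactly 1 arm was detected in 16 hairpins and both arms in 0. Of the 40 5p miRNAs 6 were detected, and of the 41 3p miRNAs 10. miR-494-5p had a mean background-subtracted, unscaled signal of 1.03 ± 3.11, -0.62 ± 2.22 and -2.55 ± 2.37 on the arrays of N-Exo, H-Exo and H+G-Exo, with 0 spots well above background on each array. The arms opposite miR-487b-3p, miR-541-5p and miR-370-3p (miR-487b-5p, miR-541-3p and miR-370-5p) likewise had 0 such spots on each array, with mean unscaled signals from -4.11 to 0.21. miR-300-5p had 0 such spots too, at 4.19 ± 1.23, 3.88 ± 1.57 and 11.7 ± 4.51. For these 5 hairpins the array therefore read only 1 arm above its background.

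Among the 65 undetected miRNAs, 58 had no spot well above background on any array. The other 7 had some, and the largest share was 42.9% of spots, for miR-493-3p in H+G-Exo. miR-1188-3p and miR-1247-5p followed with 33.3% and miR-127-5p with 28.6%, all in H+G-Exo. The undetected miRNAs had median unscaled signals of 0.21, -0.26 and 0.11 on the 3 arrays, and the highest was 13.3, 10.1 and 17.96. These signals are close to those of the weakest detected probe anywhere on each array, 18.8, 15.3 and 17.6, so the members at the edge were separated from the detected ones by few signal units.

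**Figure D1:**
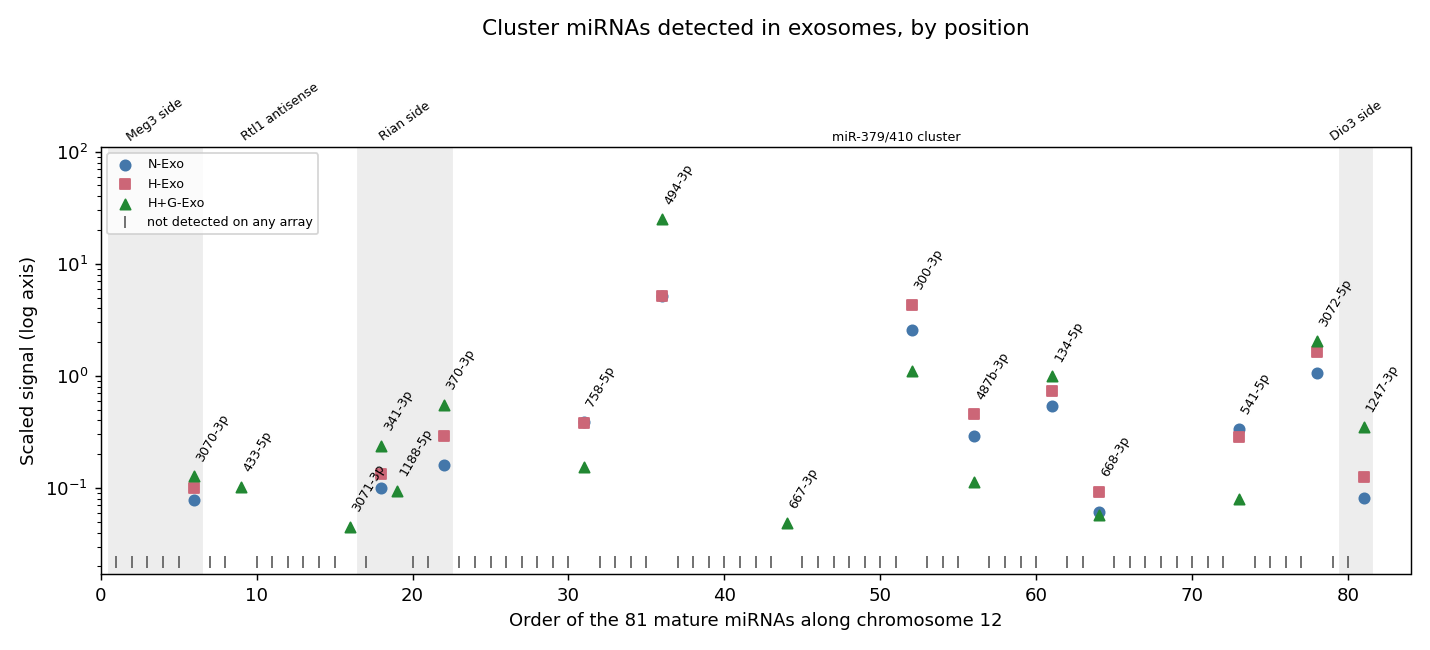
Scaled signal (log axis, no unit) of each cluster miRNA on each array where it was detected, against its order among the 81 mature miRNAs along chromosome 12, with the segments named above the axes. The ticks at the bottom mark the 65 miRNAs detected on no array. For miR-494-3p and miR-758-5p the N-Exo point lies almost under the H-Exo point. A reader should see that detected miRNAs are scattered along the region and that miR-494-3p in H+G-Exo, at 24.9, lies above its own points on the other arrays. Heights of different miRNAs come from different probes and are not comparable.

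By position, the detected miRNAs were spread over the whole region. On the Meg3 side, taken here as all miRNAs before miR-431, 1 of 6 was detected, miR-3070-3p. Its hairpin lies within the span of Rtl1, so this segment name does not give its gene. Among the 10 miRNAs from miR-431 to miR-136 and miR-3071, antisense to or around Rtl1, 2 were detected. These were miR-433-5p and miR-3071-3p, both in H+G-Exo only. The Rian side had 3 of 6, miR-341-3p, miR-1188-5p and miR-370-3p. The long run from miR-379 to miR-410 and miR-3072, the miR-379 segment, had 9 of 57: miR-758-5p, miR-494-3p, miR-667-3p, miR-300-3p, miR-487b-3p, miR-134-5p, miR-668-3p, miR-541-5p and miR-3072-5p. Beside Dio3, at the far end, 1 of 2 was detected, miR-1247-3p. Placed in the RefSeq gene spans of GRCm38.p6, the hairpins of miR-341-3p, miR-1188-5p and miR-370-3p lie within Rian, those of miR-541-5p and miR-3072-5p within Mirg, and those of miR-3070-3p, miR-433-5p and miR-3071-3p within the span of Rtl1. The other 8 lie in none of Meg3, Rtl1, Rian and Mirg as annotated there. Exon, intron or UTR positions are not given for them in the files. The array files list the 5p arm below the 3p arm for all 37 hairpins with both arms, also for the 2 on the minus strand, miR-1247 and miR-3071, where the order should be the reverse, so positions within these 2 hairpins are uncertain.

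miR-494-3p, a miRNA that has been studied in ischaemic heart muscle and in new vessel growth, stood apart in H+G-Exo. Its probe is listed at chr12:110953586-110953598 (mm9, plus strand). N-Exo gave a scaled signal of 5.19 ± 0.54 (15 spots), H-Exo 5.12 ± 0.27 (15 spots) and H+G-Exo 24.9 ± 0.50 (14 spots). N-Exo and H-Exo overlapped in their spots, and H+G-Exo overlapped neither. Single spots of N-Exo ran from 4.00 to 5.81, those of H-Exo from 4.52 to 5.55 and those of H+G-Exo from 23.9 to 25.7. The H+G-Exo signal was 4.86-fold that of H-Exo (log2 difference 2.28, SE 0.02 over spots) and 4.79-fold that of N-Exo (2.26, SE 0.04). In both comparisons it was called higher, and 99.5% and 98.7% of all measured miRNAs had a difference at or below it. H-Exo against N-Exo gave a log2 difference of -0.02 (SE 0.04), which is within that error. Before scaling, the signals were 2167, 1203 and 11663, so the H-Exo array was lower than N-Exo by 1.80-fold there. A second probe, 1 base longer, had unscaled signals of 1064, 545 and 4745, so signals of different probes are not comparable as levels. It gave H+G-Exo log2 differences of 2.13 from H-Exo and 1.99 from N-Exo. The difference of H+G-Exo from the other arrays kept its direction and its call under all 15 alternative settings tried, with log2 values from 2.23 to 3.28 against H-Exo and from 2.18 to 2.77 against N-Exo.

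3 further miRNAs had their highest signal in H+G-Exo and were called higher in at least 1 comparison, and all 3 lie outside the miR-379 segment. miR-1247-3p, next to Dio3 (listed at chr12:111516317-111516329, minus strand), had scaled signals of 0.082 ± 0.020, 0.124 ± 0.027 and 0.351 ± 0.044 in N-Exo, H-Exo and H+G-Exo. H+G-Exo was 2.83-fold H-Exo (log2 1.5, SE 0.09) and 4.31-fold N-Exo (log2 2.11, SE 0.10), so it was called higher against both. The call against H-Exo was lost under another background correction (log2 0.98). miR-370-3p, which has been studied for its effect on the fatty-acid enzyme Cpt1a, is listed at chr12:110856523-110856536 (plus strand). Its scaled signals were 0.160 ± 0.039, 0.289 ± 0.062 and 0.547 ± 0.092. The spots of H+G-Exo, 0.383 to 0.646, did not overlap those of H-Exo, 0.189 to 0.377, and the mean difference of 1.89-fold (log2 0.92, SE 0.10) was below the 2-fold limit, which it passed under 10 of 15 alternatives. Against N-Exo it was 3.42-fold (log2 1.78, SE 0.11) and called higher. miR-341-3p (chr12:110849773-110849786, plus strand) had 0.101 ± 0.018, 0.135 ± 0.023 and 0.239 ± 0.031. Its H+G-Exo signal was 2.38-fold that of N-Exo (log2 1.25, SE 0.08), a call that was lost under the other background correction (log2 0.86). Against H-Exo the ratio was 1.78-fold (log2 0.83, SE 0.08), within the 2-fold limit, which it passed under 8 of 15 alternatives.

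4 miRNAs of the miR-379 segment had their lowest signal in H+G-Exo. miR-300-3p, a close relative of miR-381-3p in sequence, is listed at chr12:110962578-110962594 (plus strand). Over 15 spots per array, N-Exo had a scaled signal of 2.56 ± 0.50, H-Exo of 4.31 ± 0.85 and H+G-Exo of 1.1 ± 0.2. The spots of H+G-Exo, 0.737 to 1.37, lay below those of N-Exo, 1.80 to 3.12, and of H-Exo, 2.94 to 5.21. H+G-Exo was lower than H-Exo by 3.93-fold (log2 difference -1.97, SE 0.11) and lower than N-Exo by 2.33-fold (-1.22, SE 0.11). Both were called lower. The call against H-Exo was lost with no scaling (-0.98), and the call against N-Exo when arrays were scaled by their median or by labelling spike-ins (-0.89 at the least).

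miR-487b-3p, another miRNA studied in vessel growth, is listed at chr12:110965597-110965613 (plus strand). Its scaled signals were 0.290 ± 0.095, 0.454 ± 0.158 and 0.114 ± 0.035 in N-Exo, H-Exo and H+G-Exo. H+G-Exo was lower than H-Exo by 3.99-fold (log2 -2.0, SE 0.17) and than N-Exo by 2.55-fold (log2 -1.35, SE 0.17). Only 1.06% of all measured miRNAs had a difference from H-Exo at or below this one. It was called lower in both comparisons and under each of the 15 alternatives, among which the log2 difference from H-Exo was smallest in size with no scaling, at -1.0.

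miR-541-5p, whose hairpin lies within Mirg, is listed at chr12:110980640-110980656 (plus strand). Its signals were 0.337 ± 0.157, 0.285 ± 0.160 and 0.080 ± 0.035. The SD was 46.6%, 55.9% and 43.2% of the mean, against a median of 13.5%, 14.0% and 13.4% over all detected probes. Single spots of H+G-Exo, 0.033 to 0.136, lay below those of N-Exo, 0.149 to 0.536, and overlapped those of H-Exo, 0.091 to 0.481. The means of H+G-Exo were lower than H-Exo by 3.56-fold (log2 -1.83, SE 0.26) and than N-Exo by 4.20-fold (-2.07, SE 0.24), and both were called lower. The call against H-Exo was lost with no scaling (-0.83) and with hybridization spike-ins. Both calls were also lost where all spots had to be well above background, since 12 of 15 spots passed in H+G-Exo.

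miR-758-5p (chr12:110951041-110951053, plus strand) had 0.386 ± 0.108, 0.376 ± 0.084 and 0.153 ± 0.039. H+G-Exo was lower than H-Exo by 2.46-fold (log2 -1.30, SE 0.13) and than N-Exo by 2.52-fold (-1.34, SE 0.14). The first of these calls was lost under 8 of 15 alternatives, where the log2 difference was as small as -0.30, and the second under 0 of 15. With no scaling the signals were 161, 88.4 and 71.8, so the drop between H-Exo and H+G-Exo was 1.23-fold there.

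**Figure D2:**
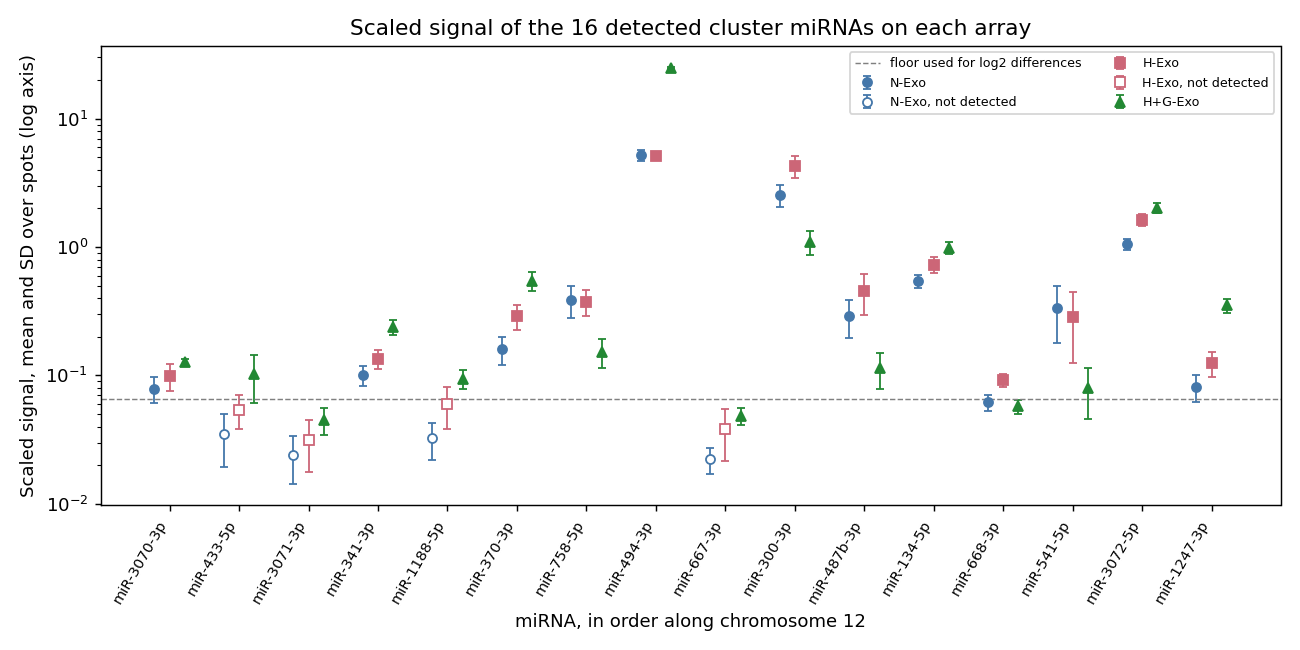
Scaled signal (log axis, no unit) of the 16 detected cluster miRNAs on each of the 3 arrays. Points are means over the replicate spots of the brightest probe and bars their SD, open symbols mark arrays on which the miRNA was not detected, and the dashed line is the floor of 0.0653 used for log2 differences. A reader should see the H+G-Exo triangles above the other symbols for miR-494-3p, miR-1247-3p and miR-370-3p, and below them for miR-300-3p, miR-487b-3p, miR-541-5p and miR-758-5p.

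The other 4 miRNAs detected on all arrays were called in no comparison under the main setting. miR-3072-5p, within Mirg (chr12:110986113-110986124), had scaled signals of 1.05 ± 0.10, 1.64 ± 0.18 and 2.03 ± 0.19 in N-Exo, H-Exo and H+G-Exo. Its largest difference was 1.94-fold, H+G-Exo over N-Exo, and passed the limit under 8 of 15 alternatives. miR-134-5p, known from work on dendritic spines in neurons (chr12:110972367-110972376), had 0.544 ± 0.062, 0.729 ± 0.106 and 0.988 ± 0.104. Its largest difference was 1.82-fold, between the same arrays, and passed the limit under 7 of 15. H+G-Exo against H-Exo passed it under 4 of 15, with a log2 difference of 0.44 that became 1.61 with no scaling. The 1.61 came from a longer probe of miR-134-5p, since the brightest probe was chosen anew under each setting. The probe of the main setting gave 1.43 with no scaling, so the passes of miR-134-5p do not reflect the scaling alone. miR-3070-3p had 0.079 ± 0.018, 0.099 ± 0.023 and 0.127 ± 0.006. The last SD is over 10 spots, with outlier spots left out, against 15 on the other arrays. Before that removal the 15 unscaled H+G-Exo spots ran from 24.4 to 72.2. A second probe, with 15 spots there, had an unscaled signal of 53.4 ± 11.1. The probes of the 2 arms of this hairpin have further listed matches on chromosome 12 outside the window. miR-668-3p had 0.062 ± 0.009, 0.092 ± 0.011 and 0.057 ± 0.008, of which the first and the last lie under the floor and have no order.

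A further 4 of the 81 miRNAs (4.94%) were detected in H+G-Exo only. Over the whole array this share was close to that, 65 of 1881 (3.46%), and 61 (3.24%) were detected in N-Exo only. Counted among the miRNAs detected on any array, those in H+G-Exo only were 4 of 16 in the cluster and 65 of 759 over the whole array. This difference was not tested. miR-1188-5p, on the Rian side, had an H+G-Exo signal of 0.094 ± 0.016 with all 15 spots well above background, against 1 of 15 in N-Exo and 3 of 15 in H-Exo. It was at least 2.09-fold higher than in N-Exo and at least 1.44-fold higher than in H-Exo. miR-433-5p, which lies opposite Rtl1, had 0.102 ± 0.042 with 7 of 7 spots well above background, against 2 of 7 and 0 of 7. Its bounds were at least 2.26-fold over N-Exo and at least 1.56-fold over H-Exo. A bound compares the signal with the higher of the weakest detected signal on the other array and the miRNA's own signal there. miR-667-3p, at 0.048 ± 0.007 with 5 of 7 spots, and miR-3071-3p, at 0.045 ± 0.011 with 10 of 15, lay under the floor in H+G-Exo. They were at least 1.07-fold and at least 1.00-fold higher than in N-Exo, and no bound above 1 could be given against H-Exo. 0 of the 81 cluster miRNAs were detected in N-Exo or H-Exo and missing in H+G-Exo, against 80 of 1881 (4.25%) over the whole array. Only the 12 cluster miRNAs detected in N-Exo or H-Exo could be missing in this way. miR-666-3p, a miRNA of the region that was not included, was missing in this way (see Other observations).

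Set against each other as a whole, hypoxia and normoxia gave no called difference in the cluster. In H-Exo against N-Exo 12 of the 81 miRNAs were detected on both arrays, and 0 were called higher and 0 lower. Over all 582 miRNAs measured on both arrays, 14.9% were called, 4.3% higher and 10.7% lower. The median log2 difference of the 12 was 0.46, with a range from -0.24 (miR-541-5p) to 0.85 (miR-370-3p), beside a median of 0.34 over all miRNAs. Relative to that median, miR-370-3p stood at 0.51, miR-300-3p at 0.41 and miR-541-5p at -0.58. The sign of the median turned with the scaling: with no scaling it was -0.33 for the cluster and -0.49 for all miRNAs, and 9 of 12 differences above 0 became 1 of 12.

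H+G-Exo against H-Exo gave 6 calls among the 12 measured cluster miRNAs, where 32.3% of all 566 measured miRNAs were called. 2 were higher, miR-494-3p and miR-1247-3p, beside 6.18% higher over all miRNAs. 4 were lower, miR-300-3p, miR-487b-3p, miR-541-5p and miR-758-5p, beside 26.1% lower over all. The cluster median was 0.34 and that of all miRNAs -0.42. The size of the differences shifted with the scaling, since the 75th percentile of the H+G-Exo array was 1.995 times that of the H-Exo array. With no scaling 7 cluster miRNAs were higher and 1 lower, and over all miRNAs the split went from 35 higher and 148 lower to 185 higher and 7 lower. Over the 7 scalings the sign turned for 1 of the 12 cluster miRNAs here, miR-668-3p, and for 9 of 12 in H-Exo against N-Exo.

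H+G-Exo against N-Exo gave 8 calls among 12, where 44.4% of all 606 measured miRNAs were called. 4 were higher, miR-494-3p, miR-1247-3p, miR-370-3p and miR-341-3p, beside 18.3% over all miRNAs. 4 were lower, miR-541-5p, miR-487b-3p, miR-758-5p and miR-300-3p, beside 26.1%. The medians were 0.78 for the cluster and -0.05 for all miRNAs. The 75th percentiles of these arrays differed by 1.12 times, and with no scaling the cluster counts were 6 higher and 4 lower. Every 2 of the 3 comparisons share an array, so the calls in one are not independent of those in another.

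**Figure D3:**
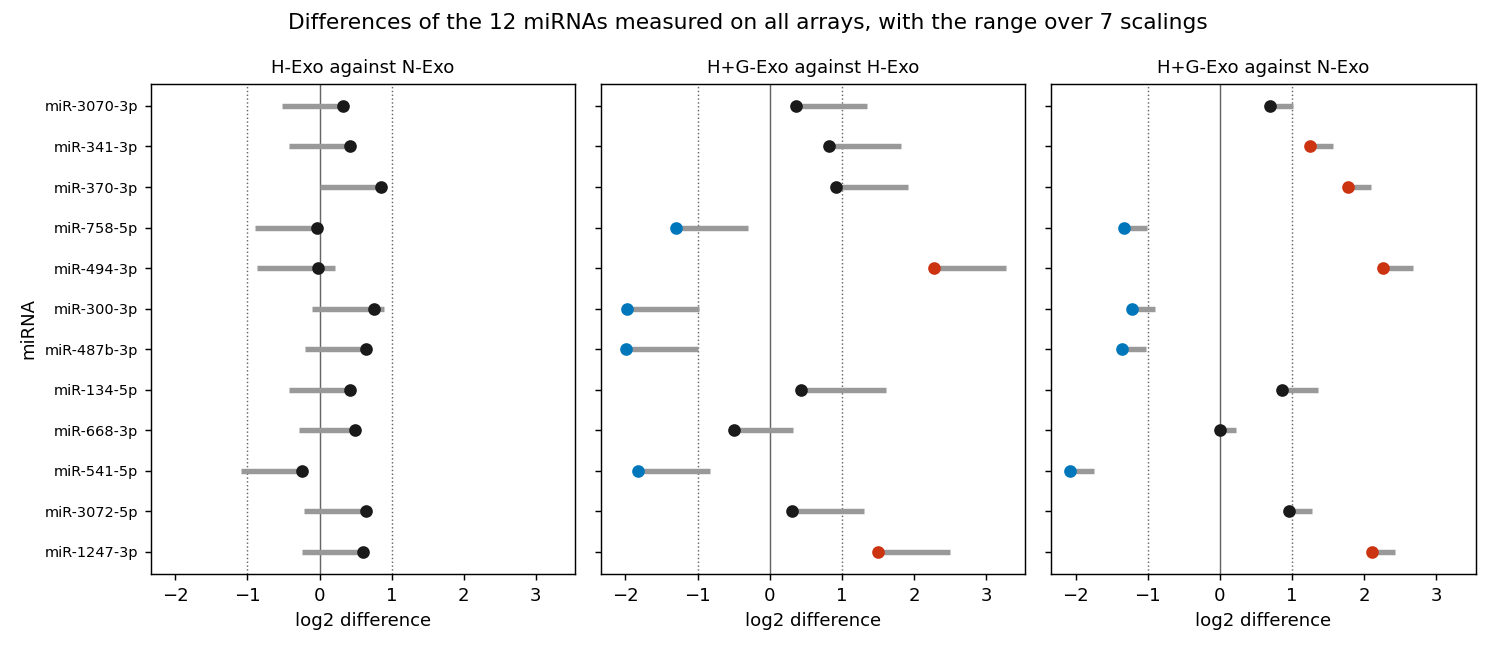
Log2 difference of the 12 cluster miRNAs detected on all 3 arrays, in order along chromosome 12, for the 3 comparisons. Points are the main values (red called higher, blue called lower, black not called), grey bars the range over 7 scalings of the arrays, and dotted lines a 2-fold difference. A reader should see grey bars about 1 log2 unit long in the middle panel, and shorter ones in the right panel, H+G-Exo against N-Exo, where miR-494-3p lies at 2.26 and miR-541-5p at -2.07.

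Of the 12 measured miRNAs 8 lie in the miR-379 segment. All 4 miRNAs called lower are among them, and so are miR-494-3p, which was called higher, and miR-134-5p, miR-668-3p and miR-3072-5p, which were not called. miR-758-5p and miR-494-3p are neighbours among the detected miRNAs and had opposite calls. The list medians of comparison clusters in H+G-Exo against H-Exo were -0.21 for 4 other imprinted miRNAs, -0.84 for 16 Sfmbt2 miRNAs and -0.11 for 7 pluripotency-cluster miRNAs. None of the 4 imprinted miRNAs was called, 5 of the 16 Sfmbt2 miRNAs were lower and 0 higher, and 1 of the 7 was higher. The cluster held calls in both directions.

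Properties of the probes moved with the differences. The median GC content of the probes was 66.7% for cluster miRNAs with a difference above 0 in H+G-Exo against N-Exo and 52.8% for those below 0. Across the 12 miRNAs the rank correlation of probe GC with that difference was 0.43, and 0.49 across all 606 measured miRNAs, given as descriptions of probes that share 2 arrays. Its part in the differences was not tested. The replicate spots were not random over the array surface either. The median rank correlation of spot signal with the column of the array was 0.69, 0.67 and 0.54 for the 12 cluster miRNAs measured on all 3 arrays, and 0.46, 0.42 and 0.46 for all detected probes. With only the spots in the lower columns, or only those in the upper columns, every called cluster difference kept its call.

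**Figure D4:**
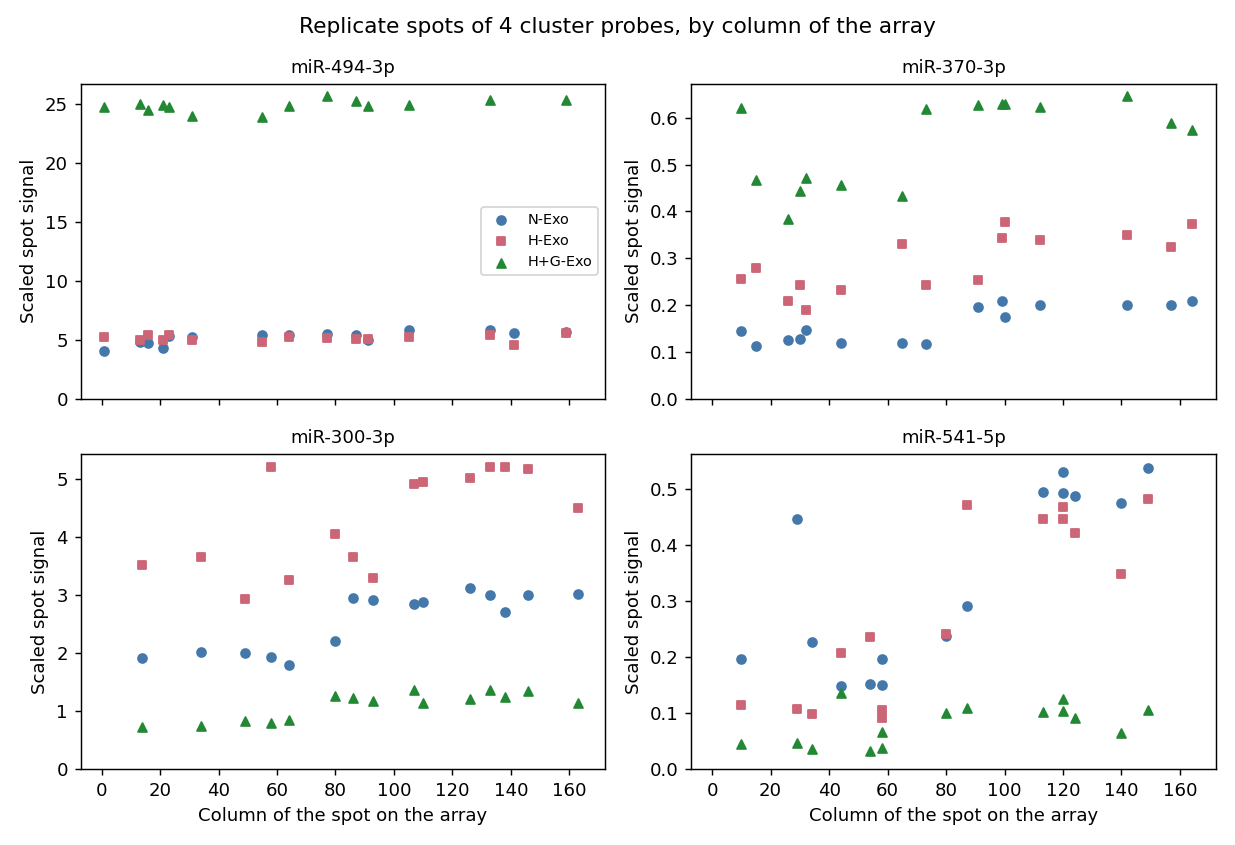
Scaled signal (linear axis from 0, no unit) of each replicate spot of 4 cluster probes against the column of the spot on the array, by group. A reader should see that spots in higher columns were mostly brighter for miR-300-3p, miR-370-3p and miR-541-5p, and that for miR-494-3p the H+G-Exo spots, 23.9 to 25.7, lie far above all others in every column.

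Where several probes of a miRNA were detected, they gave the same direction. This held for 10 cluster miRNAs in each of the 3 comparisons, with 0 opposite signs. An eleventh in H+G-Exo against N-Exo, miR-668-3p, lay under the floor on both arrays and has no direction, and the largest gap between probes of 1 miRNA was 0.42 log2 units, for miR-541-5p. miR-300-3p was an exception of another kind, since only 1 of its 2 probes was detected. The probes are shown because they differ by 1 base, marked in capitals at the 3' end.
miR-300-3p shorter probe: gaagagagcttgccctt
miR-300-3p longer probe: gaagagagcttgcccttG

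The longer probe of 18 bases had unscaled signals of 1067 ± 209, 1012 ± 198.8 and 514 ± 110, with 15 of 15 spots well above background on every array. The shorter probe of 17 bases had 10.9 ± 4.1, 6.93 ± 4.70 and 14.7 ± 3.0, with 1, 0 and 1 of 15 spots. Among all pairs of probes on the array that differ by 1 base in this way, 97 had a longer probe above 500 on every array, and in 2 of them the shorter one was detected on no array. The values of miR-300-3p above therefore rest on 1 probe.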

How the data were processed

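Exosomal RNA of 3 groups was hybridized to 1 one-colour Agilent mouse miRNA array each. Per the labels' protocols, RNA came from TRIzol extraction and the dye was Cy3. Both a cRNA amplification kit and a cDNA kit are named there, and the labelling of the hybridized RNA is therefore uncertain. Per the submitters' processing notes, the scans were quantified with Agilent Feature Extraction 10.7.1.1. The deposited files hold an intensity per spot, the processed intensity having its background subtracted, with no scaling between arrays. The deposited value table was read as log2 values, and the sources used here do not give its normalization.

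Control and outlier spots were left out, and the rest averaged per probe, divided by the array's 75th percentile, taken over 1119 probes that every array detected, raised to a floor of 0.0653 and turned into log2. The floor is the highest of the 3 arrays' weakest detected signals, so folds of miRNAs near it are understated. Python 3.11.15 with pandas 2.3.3 was used, and R 4.3.3 with limma 3.58.1 for the alternative background correction (normexp, offset 0). The steps were tested on simulated data. With 1 array per group no model was fitted. 15 alternative settings were tried, of which 3 (the lower columns, the upper columns, the median over spots) were chosen after seeing the data.

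The named miRNAs were all cluster miRNAs detected on at least 1 array, plus the opposite arms of 5 of them and the undetected ones nearest to detection. Members and lists were chosen with earlier results of these data known. Probe positions are those of the array files (mm9). Whether they count from 0 or 1 is unstated, and some are 1 base short of the probe's length, which leaves ends uncertain by 1 base. Arrays are limited in precision by their number. No sample of another series was used.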

Additional observations from a re-analysis of the deposited data

How the results depend on the processing

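With 1 array per group no replicate could be left out. No paired analysis was possible because the groups share fewer than 2 replicate numbers. In H+G-Exo against H-Exo, 2 cluster miRNAs were called higher. The count was 4 when every probe entered the 75th percentile and with quantile normalization, with the total intensity per miRNA and with the deposited value table, 5 with the median of the arrays, 6 with labelling spike-ins, 7 with no scaling and with hybridization spike-ins, and 1 with normexp background correction. The count called lower there was 4, and became 1 with no scaling and 2 with hybridization spike-ins. In H+G-Exo against N-Exo the count called higher was 4, and became 7 with the median and with labelling spike-ins, 8 with the total intensity and 9 with the deposited value table. In H-Exo against N-Exo the counts of 0 became 2 higher with the deposited value table, and 1 lower with no scaling and with hybridization spike-ins.

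The median log2 difference of the cluster in H+G-Exo against H-Exo, 0.34, was 0.67 when every probe entered the 75th percentile, 0.75 under median scaling, 0.49 under quantile normalization, 1.33 with no scaling, 1.01 with labelling spike-ins, 1.23 with hybridization spike-ins, 0.15 with normexp, 0.50 with all spots required above background, 0.56 with the total intensity, 0.67 with the deposited value table and 0.23 with spots of the upper columns. In H+G-Exo against N-Exo the median of 0.78 became 0.89, 1.13, 0.88, 0.99 and 1.15 under the first 5 of these settings in that order, 0.53 with normexp, 0.90 with all spots required, 0.95 with the total intensity, 1.17 with the deposited value table, and 0.56 and 0.96 with the lower and upper columns. In H-Exo against N-Exo the median of 0.46 became 0.28 when every probe entered the 75th percentile, 0.15 with labelling spike-ins and 0.22 with the total intensity, and its sign turned with no scaling (-0.33) and with hybridization spike-ins (-0.35). Scalings by 1 factor per array shift the miRNAs of a comparison by the ratio of the factors. Exceptions are values at the floor and miRNAs whose brightest probe changed, since that probe was chosen anew under each setting. It changed for miR-134-5p with no scaling, under median scaling and with both kinds of spike-ins. For quantile normalization and the other settings the cause was not tested. The numbers of cluster miRNAs detected were within 1.5 times when all spots had to be well above background. The same held when only miRNAs with every listed match inside the window were kept. Under the other settings these numbers were not counted. Of the 4 miRNAs found in H+G-Exo only, miR-667-3p and miR-3071-3p had unscaled signals of 22.6 and 21.2 there, near the array's weakest detected signal of 17.6, and miR-433-5p and miR-1188-5p had 47.9 and 44.2.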

Other observations

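RefSeq (GRCm38.p6) lists 113 mature miRNAs between Dlk1 and Dio3, of which 112 were on the array and 78 were matched by position above. The other 34 were not included, 33 of them because the array files list all their probes as unmapped, and 9 of the 34 were detected on at least 1 array. These 9 were found by name after the values were seen. miR-432 had scaled signals of 1.47 ± 0.19, 1.94 ± 0.31 and 1.28 ± 0.19 in N-Exo, H-Exo and H+G-Exo. miR-770-3p, on the Meg3 side, had 0.355 ± 0.045, 0.683 ± 0.097 and 0.565 ± 0.083. miR-1906 had 0.345 ± 0.074, 0.418 ± 0.059 and 0.755 ± 0.103 and was the only one of the 9 called in a comparison, higher in H+G-Exo than in N-Exo (log2 difference 1.13). miR-666-3p was detected in N-Exo (0.144 ± 0.064) and H-Exo (0.152 ± 0.062) and not in H+G-Exo. miR-666-5p was detected in H-Exo (0.092 ± 0.008) and H+G-Exo (0.152 ± 0.009) and not in N-Exo, so both arms of this hairpin were read above background in H-Exo. For the hairpin of miR-770 both arms were read in N-Exo and H+G-Exo, where miR-770-5p had 0.072 ± 0.014 and 0.065 ± 0.010.

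The software's own total per miRNA differed from the probes in places. For 6 of the 81 miRNAs the listed total exceeded the sum of its own probes' totals by more than 10% on at least 1 array. For miR-433-5p the ratio on the N-Exo, H-Exo and H+G-Exo arrays was 83.7, 75.2 and 31.98, and for miR-300-3p it was 1.55, 1.13 and 1.00. The software's flag listed 23 cluster miRNAs as detected, 7 of which were not detected by their spots.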
